A study of Mus musculus with 6 samples.

Results

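The genes described here are 10 cell surface markers used to recognise skeletal and mesenchymal progenitors: Ly6a, Ly6c1, Ly6e, Cd34, Thy1, Eng, Nt5e, Ngfr, Dpp4 and Cd44. They were chosen by name, and each gene's level was read from the probe set that names that gene and no other. Of the 10 genes, 8 had such a probe set, out of 19938 genes in all. The platform annotation used here assigns no probe set to Ly6a, which was not analysed here. Ly6c1 shares its probe sets with its close copy Ly6c2, and those are described separately below. Cxcl12-abundant reticular (CAR) cells, a stromal population of bone marrow with high Cxcl12, were sorted from femur and tibia and measured on Affymetrix arrays. Cells that Dmp1-Cre had targeted were compared with cells that it had not, with 3 arrays per population. All mice were C57BL/6, aged 7 weeks, with the genotype Dmp1-Cre Cxcl12-gfp/+, so the control cells carried the Cre and the gfp allele too. The Cre is under the control of Dmp1 sequence, and Dmp1 encodes a bone matrix protein that late osteoblasts and osteocytes make. How targeted cells were recognised in the sort is not given in the sources used here. Each sample came from the cells of 1 mouse, and the sources do not settle whether the targeted and non-targeted samples of a number came from the same mouse.

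Surface proteins serve to isolate live progenitors because antibodies reach them from outside the cell, and they are combined because few of them mark a cell type alone. LY6A, known as Sca-1, is combined with PDGFRA to isolate mesenchymal progenitors of mouse bone, and DPP4 (CD26) marks early progenitors of adipose tissue and fibroblasts. THY1 (CD90), ENG (CD105), NT5E (CD73) and CD44 belong to the set used for cultured marrow stromal cells, and NGFR (CD271) marks stromal progenitors of human marrow. None is exclusive to stroma: CD34 and ENG are also carried by endothelium, THY1 by mouse T cells, LY6C by monocytes and neutrophils, and CD44 by most leukocytes. The Ly6 proteins, THY1 and NT5E are held in the membrane by a glycosylphosphatidylinositol (GPI) anchor.

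None of the markers that could be tested passed the test between the populations, and the arrays of the populations overlapped for all 8 with a value. On the log2 intensity scale, 3 genes were at or under the limit of 6.00 below which genes were treated as dim and left out of the test, namely Cd34, Thy1 and Dpp4. The other 5, Ly6e, Eng, Nt5e, Ngfr and Cd44, were tested with limma among 13292 genes, and 0 of the 5 passed an adjusted p of 0.05. Over all genes tested the percentage called was 0, so this count does not set the markers apart. At an unadjusted p of 0.05, 634 genes (4.77%) were called and 0 of the 5 markers. For comparison, the arrays of the populations did not overlap for 9.07% of the genes tested (3.32% higher and 5.76% lower in targeted cells) and 8.07% of all genes with a value. Eng and Ly6e had the largest differences of the 8, both towards lower levels in targeted cells, and Ngfr had the smallest.

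Median intensities ran from 79.4 to 87.5, and pairs of arrays correlated across genes at 0.95 to 0.98. Cxcl12 lay between 12.22 and 12.65 on all arrays. Dmp1 was at 9.89 to 11.28 in targeted cells, against 6.91 to 7.51 in non-targeted cells. Targeted replicate 1 stood apart in its neutrophil genes, as described with the Ly6c probe sets.

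**Figure D1:**
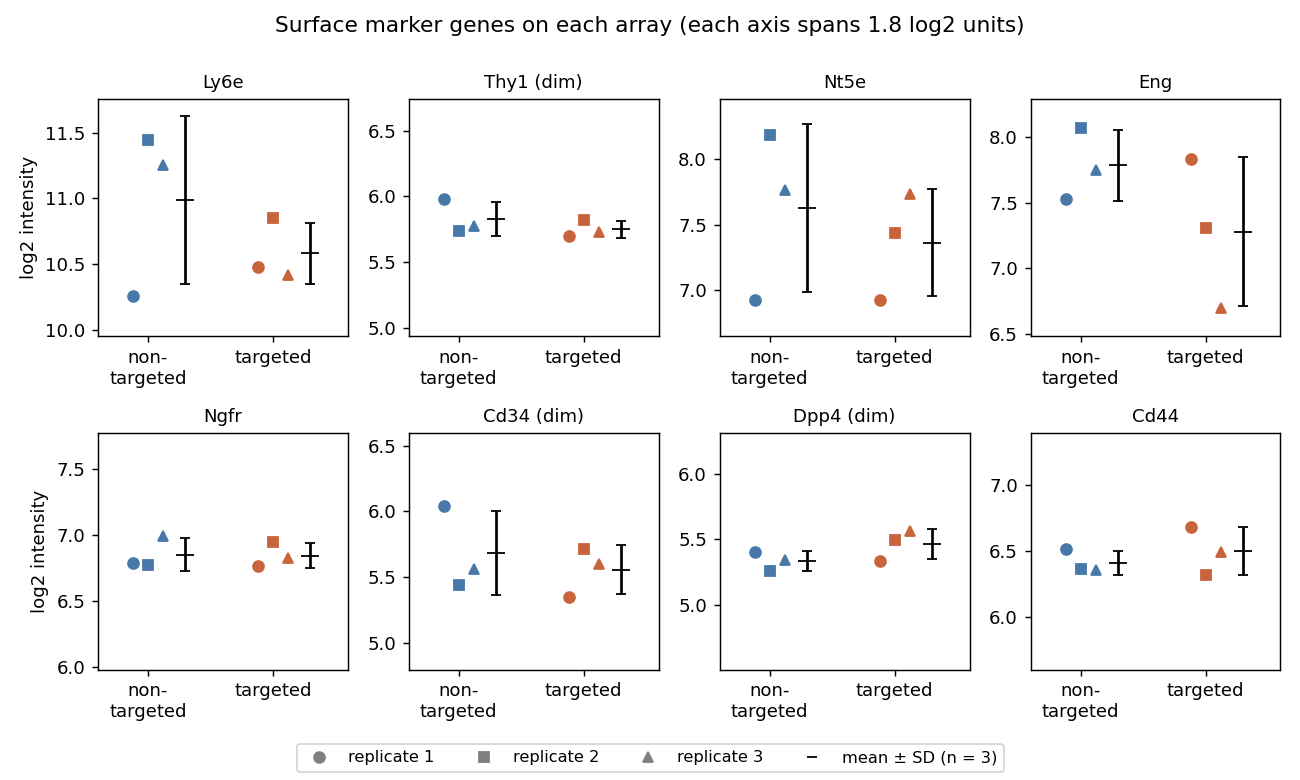
Log2 intensity of the 8 marker genes (y axes, each spanning the same length) in non-targeted (blue) and targeted (orange) CAR cells; symbols give the replicate number and the black marks the mean ± SD over 3 arrays. The arrays overlap in every panel, and Ly6e, Nt5e and Eng spread over more than 1 log2 unit whereas the range was 0.28 for Thy1, 0.23 for Ngfr and 0.30 for Dpp4.

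Ly6e encodes a GPI-anchored Ly6 protein of thymocytes and many other cells whose gene responds to interferon. Its log2 intensity was 10.26, 11.45 and 11.25 on non-targeted replicates 1, 2 and 3, and 10.48, 10.85 and 10.42 on the targeted ones. Non-targeted replicates 2 and 3 lay above all targeted arrays, and non-targeted replicate 1 lay below them all. The means were 10.99 ± 0.64 and 10.58 ± 0.23 (SD, n = 3 each). The log2 difference, targeted minus non-targeted, was -0.40 (SE 0.31, 95% interval -1.13 to 0.32, limma adjusted p = 0.9998). It was -0.77 without non-targeted replicate 1 (limma adjusted p = 0.736) and -0.17 without non-targeted replicate 2, the ends of the range over arrays left out in turn.

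Eng encodes endoglin, a co-receptor for ligands of the TGF-beta and BMP family. It was at 7.53, 8.07 and 7.75 in non-targeted cells and at 7.83, 7.30 and 6.70 in targeted cells. Targeted replicates 2 and 3 lay below every non-targeted array, and targeted replicate 1 lay within the non-targeted range. The means were 7.78 ± 0.27 and 7.28 ± 0.57 (SD, n = 3 each), and the log2 difference was -0.50 (SE 0.29, 95% interval -1.18 to 0.18, limma adjusted p = 0.9998). Of the 5 tested markers Eng had the smallest unadjusted p, and 87.9% of all genes tested had a larger one. The difference was -0.78 without targeted replicate 1 (limma adjusted p = 0.509) and -0.21 without targeted replicate 3.

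Nt5e encodes the enzyme that converts extracellular AMP to adenosine. It was at 6.93, 8.18 and 7.77 in non-targeted and at 6.92, 7.44 and 7.73 in targeted cells, with both replicate 1 arrays the lowest. On replicates 2 and 3 both non-targeted arrays lay above both targeted ones. The means were 7.63 ± 0.64 and 7.36 ± 0.41 (SD, n = 3 each), with a log2 difference of -0.26 (SE 0.34, 95% interval -1.06 to 0.53, limma adjusted p = 0.9998). It was -0.61 without non-targeted replicate 1 and 0.0165 without non-targeted replicate 2, so its direction rested on that array.

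Ly6e, Eng and Nt5e were the variable markers. Their SDs over the 6 arrays were 0.48, 0.48 and 0.50, larger than those of 91.9%, 92.0% and 92.7% of all genes with a value. All 3 were highest on non-targeted replicate 2, which also had the highest summed intensity over the genes tested. When arrays were rescaled by quantiles, cyclic loess or medians, their differences ran from -0.40 to -0.31 for Ly6e, -0.50 to -0.46 for Eng and -0.26 to -0.14 for Nt5e. On replicates 2 and 3 alone, a choice made after seeing the data, the differences were -0.72 for Ly6e, -0.91 for Eng and -0.39 for Nt5e, with limma adjusted p-values of 0.352, 0.351 and 0.454.

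Ngfr and Cd44 varied less, with SDs over the 6 arrays of 0.10 and 0.14, larger than those of 7.0% and 20.8% of all genes with a value. Ngfr, the low-affinity receptor of the neurotrophins, was at 6.79, 6.77 and 6.99 in non-targeted and at 6.76, 6.94 and 6.82 in targeted cells. Its log2 difference was -0.0073 (SE 0.15, 95% interval -0.35 to 0.33, limma adjusted p = 0.9998). Cd44, the main receptor for the matrix sugar hyaluronan, was at 6.51, 6.36 and 6.35 in non-targeted and at 6.68, 6.31 and 6.50 in targeted cells. The targeted arrays spanned the whole non-targeted range. Its log2 difference was 0.09 (SE 0.16, 95% interval -0.28 to 0.46, limma adjusted p = 0.9998), and -0.003 without targeted replicate 1. Cd44 has many spliced forms, and a level summed over 1 probe set does not tell them apart.

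The 3 dim markers lay near the lower end of the intensity scale, where array values are known to change less than the RNA does. Their means over the 6 arrays were 5.79 for Thy1, the closest to the limit, 5.62 for Cd34 and 5.3996 for Dpp4. A dim value does not show that a gene is silent, and no detection call was used here. Thy1, a GPI-anchored protein that binds integrins, was at 5.98, 5.74 and 5.78 in non-targeted and at 5.70, 5.82 and 5.73 in targeted cells. In a fit without the filter its log2 difference was -0.08 (95% interval -0.39 to 0.23). Cd34, a sialomucin of blood progenitors, endothelium and some mesenchymal cells, was at 6.04, 5.44 and 5.56 in non-targeted and at 5.35, 5.72 and 5.60 in targeted cells. Non-targeted replicate 1 was the one array of the 6 above the limit for Cd34, and the other 5 intermingled. Its difference in the unfiltered fit was -0.13 (95% interval -0.58 to 0.32). Dpp4, a membrane peptidase that trims CXCL12 among other substrates, was at 5.41, 5.26 and 5.34 in non-targeted and at 5.34, 5.50 and 5.56 in targeted cells. Targeted replicates 2 and 3 were above all non-targeted arrays by a small margin. Its difference was 0.13 (95% interval -0.18 to 0.44), and the limma adjusted p of each of these 3 genes was 0.9998 over all 19938 genes.

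**Figure D2:**
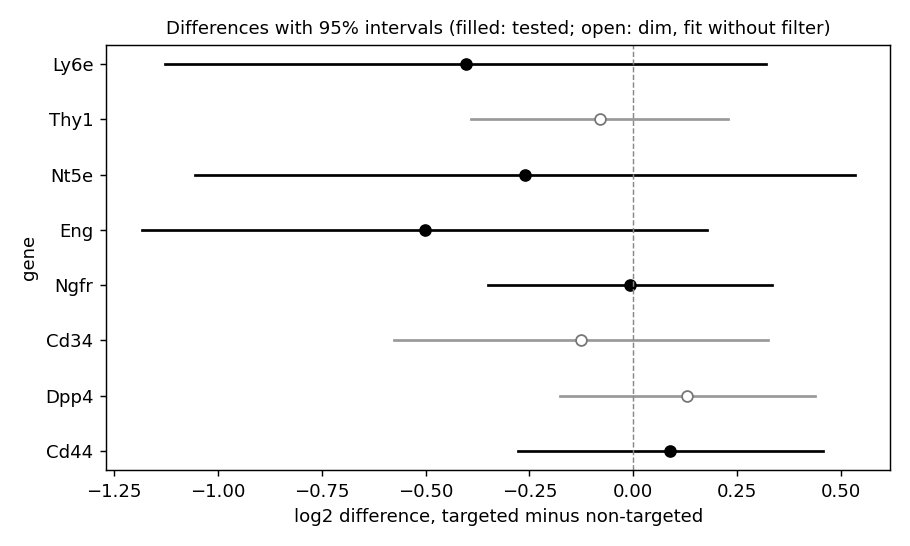
Log2 difference of each marker between targeted and non-targeted CAR cells (x axis) with its 95% interval from limma; filled points are tested genes, open points are dim genes taken from the fit without a filter. Every interval includes 0, from the widest, those of Nt5e (-1.06 to 0.53), Ly6e (-1.13 to 0.32) and Eng (-1.18 to 0.18), to the narrowest, that of Dpp4 (-0.18 to 0.44).

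Ly6c1 and Ly6c2 encode near-identical LY6C proteins, which mark monocytes and neutrophils and some endothelium. They are listed together for 2 probe sets, which cannot be assigned to either gene and stayed out of the fit. Probe set 10429568 was at 7.56, 7.00 and 7.98 in non-targeted and at 5.56, 7.26 and 6.23 in targeted cells. Targeted replicates 1 and 3 were below all other arrays, and targeted replicate 2 lay within the non-targeted range. The log2 difference was -1.16, which did not pass a two-sided exact permutation test over the arrays (p = 0.2, adjusted over the 2 probe sets 0.4; 0.1 is the smallest the design allows). Probe set 10429573 was at 7.06, 6.73 and 7.62 against 6.51, 7.51 and 6.90, a difference of -0.17 (exact permutation p = 0.7, adjusted 0.7). The probe sets thus disagreed in size, and the second turned to 0.064 without targeted replicate 1 and to 0.0745 without non-targeted replicate 3. For the first, the difference was -0.77 without targeted replicate 1 and -1.62 without targeted replicate 2.

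Neutrophil genes were likewise lowest on targeted replicate 1. S100a8, an abundant neutrophil calcium-binding protein gene, was at 6.97 on targeted replicate 1 and at 11.31 to 11.97 on the other 5 arrays. S100a9 was at 8.43 there and Ngp, a neutrophil granule gene, at 5.25. Over the 18 neutrophil markers, all with a value and 14 of them tested, 12 were lower and 2 higher in targeted cells, with 0 called by limma, 1 lower at an unadjusted p of 0.05 and a median log2 difference of -0.64 (-0.0051 over all genes tested). That median was -0.10 without targeted replicate 1, -0.16 over all 18 genes without the filter on dim genes, and -1.11 when the dimmer 50.0% of genes were left out. Their summed intensity was 1954, 8819 and 12176 on targeted replicates 1, 2 and 3 and between 9753 and 14756 on the non-targeted arrays. Ly6g, the Ly6 protein that defines mouse neutrophils, was dim on every array, from 4.62 to 5.49. The sum on targeted replicate 3 was within the non-targeted range while its value for the first Ly6c probe set, 6.23, was not. The monocyte and macrophage list, 14 markers with 11 tested, had 7 higher and 4 lower with a median of 0.04, which turned negative when any 1 of 5 arrays was left out (to -0.09 without targeted replicate 2) and was 0.13 without the sixth, targeted replicate 1. Its summed intensity was 4350 to 4709 in targeted cells, against 4762 to 6195 in non-targeted cells, and Vcam1, which is also a CAR cell gene, made up most of it. Without Vcam1, a choice made after seeing the data, the sum was 1071 to 1558 in targeted cells, against 1245 to 1398 in non-targeted cells, so that the populations overlapped. Of the 11 tested genes of this list 0 were called by limma. Cd14 alone had an unadjusted p under 0.05, where 4.77% of all genes tested did. Cd14 differed by -0.58 (limma adjusted p = 0.947) with all targeted arrays lower, as for 5.76% of all genes tested. The part of neutrophils, monocytes and macrophages in the Ly6c difference was not tested. In RNA from sorted pools, fewer cells of a type and less RNA per cell cannot be told apart.

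**Figure D3:**
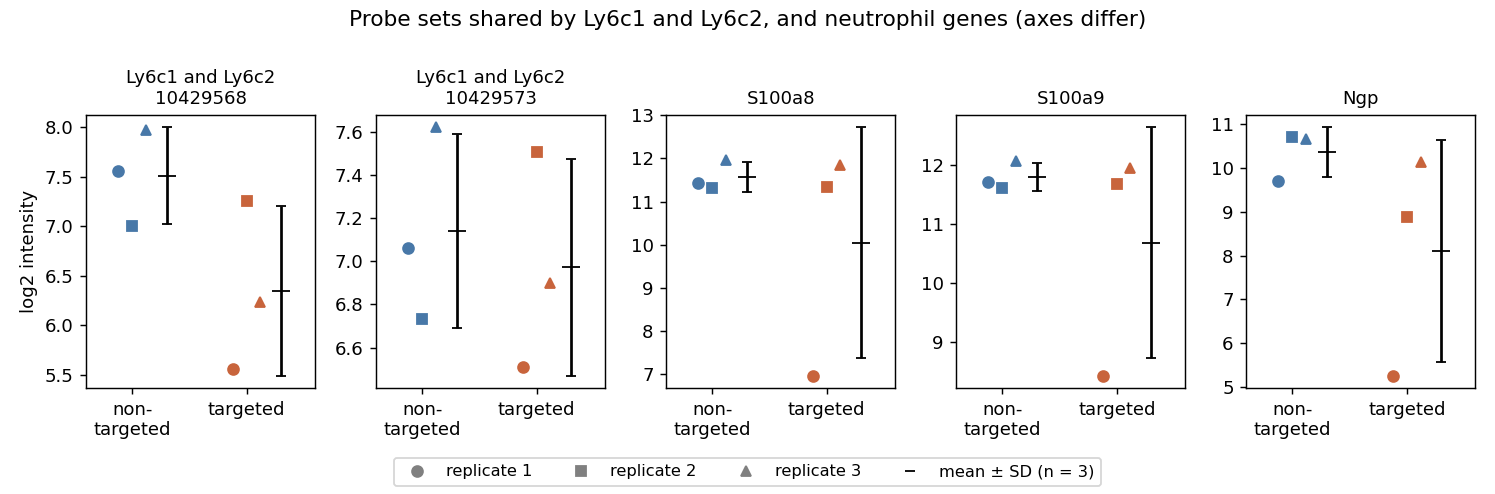
Log2 intensity (y axes, which differ between panels) of the 2 probe sets shared by Ly6c1 and Ly6c2 and of 3 neutrophil genes in non-targeted (blue) and targeted (orange) CAR cells, with symbols for replicates and mean ± SD over 3 arrays. Targeted replicate 1 is the lowest point in each panel, at 5.56 and 6.51 for the Ly6c probe sets and 6.97, 8.43 and 5.25 for S100a8, S100a9 and Ngp.

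Many markers of endothelium and of T and NK cells were dim. Of neutrophil markers 4 of 18 were dim, and of monocyte and macrophage markers 3 of 14, so most of these were not. Of 20 endothelial markers 11 were dim, among them Pecam1 at 5.44 to 5.85, and Cdh5, the endothelial cadherin gene, was at 6.01 to 6.43. Their summed intensity was 1265 to 1499 in targeted cells, against 1232 to 1541.5 in non-targeted cells, so the populations overlapped. The part of endothelial cells in the Eng difference was not tested. The 9 tested endothelial markers had a median difference of 0.04, with 6 higher and 3 lower, and the median turned to -0.02 without non-targeted replicate 2. Of 13 T and NK cell markers 12 had a value and 8 were dim, and their summed intensity was 609 to 744 in targeted cells, against 578 to 703 in non-targeted cells. Ptprc, the pan-leukocyte gene, was dim at 5.34 to 5.98. Of 15 leukocyte and progenitor markers 14 had a value and 5 were dim. Their summed intensity was 1151 to 1335.5 in targeted cells, against 1213 to 1429 in non-targeted cells, with a median difference of -0.06.

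No other member of the Ly6 family passed the test. Of 24 listed genes 16 were tested, 7 were dim and Ly6c2 had no probe set of its own. With limma 0 were called, 10 were higher and 6 lower, and the median difference was 0.05. It was 0.14 without targeted replicate 1, -0.03 when non-targeted replicate 2 was left out and -0.02 when targeted replicate 3 was. At an unadjusted p of 0.05, 2 of 16 were called against 4.77% of all genes tested. Ly6g6d was at 6.88, 7.22 and 6.57 in targeted cells, against 5.95, 6.11 and 6.29 in non-targeted cells, a difference of 0.77 (SE 0.20, limma adjusted p = 0.775). Lynx1, a GPI-anchored modulator of nicotinic receptors, was at 6.76, 7.32 and 6.94 against 7.34, 7.82 and 8.09, a difference of -0.74 (SE 0.24, limma adjusted p = 0.947). The arrays of both genes did not overlap, as for 9.07% of all genes tested. Ly6d, a marker of early B lineage commitment, differed by 0.22 and Slurp1 by 0.12, with overlapping arrays.

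The enzymes that build and attach the GPI anchor, on which Ly6e, Thy1 and Nt5e depend, were 27 tested genes of 29. With limma 0 were called, 16 were lower and 11 higher in targeted cells, with a median difference of -0.07, which was -0.18 without non-targeted replicate 1 and -0.02 without non-targeted replicate 2. At an unadjusted p of 0.05, 4 were lower and 0 higher, where 3.42% of all genes tested were lower. Pigf differed by -0.69, Pigh by -0.76, Pigm by -0.53 and Pigx by -0.40. Each had all targeted arrays below all non-targeted ones, as did 5.76% of all genes tested. Pigh, a subunit of the enzyme that starts the anchor, was at 6.99, 7.47 and 7.22 in targeted cells, against 7.50, 8.10 and 8.35 in non-targeted cells. Pigm, the first mannosyltransferase of the pathway, was at 6.58, 6.66 and 6.40 against 7.14, 7.27 and 6.80. None of the 4 passed after adjustment (limma adjusted p = 0.849 for Pigf, the smallest).

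Of 29 surface markers of stroma outside the 10, 27 were tested, 19 were lower and 8 higher in targeted cells, and 0 were called by limma. The median difference was -0.21, against -0.0051 over all genes tested, and 5 of 27 had an unadjusted p under 0.05, where 4.77% of all genes tested did. Without targeted replicate 3 the median was -0.125. Enpep, the membrane glutamyl aminopeptidase, was at 7.30, 6.80 and 6.88 in targeted cells, against 8.51, 7.78 and 7.72 in non-targeted cells (difference -1.01, SE 0.25, limma adjusted p = 0.758). Cd248, endosialin of fibroblasts and pericytes, was at 7.28, 7.27 and 7.25 against 7.79, 7.76 and 7.61 (difference -0.45, SE 0.14, limma adjusted p = 0.902). Lepr, the leptin receptor of CAR cells, differed by -0.49. Ncam1, a cell adhesion molecule, went the other way, at 10.37, 9.59 and 9.77 against 8.69, 8.99 and 9.20 (difference 0.95, SE 0.24, limma adjusted p = 0.758). The arrays of these 4 genes did not overlap, as for 9.07% of all genes tested. Pdgfra, which is paired with LY6A in sorts of bone progenitors, was at 10.07, 9.57 and 9.52 in targeted cells, against 10.09, 9.97 and 9.78 in non-targeted cells (difference -0.23). Its arrays overlapped as well.

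Receptors and effectors that work with endoglin were tested for 24 of 27 genes. With limma 0 were called, 19 were lower and 5 higher, and the median difference was -0.16, which ran from -0.24 without targeted replicate 1 or non-targeted replicate 1 to -0.04 without non-targeted replicate 2. Acvr1, a type I BMP receptor, was at 8.45, 8.35 and 7.98 in targeted cells, against 8.79, 8.94 and 8.55 in non-targeted cells (difference -0.50, SE 0.19, limma adjusted p = 0.970). It was the 1 gene of the 24 tested with an unadjusted p under 0.05, where 4.77% of all genes tested were, so this count does not set the list apart. Acvrl1, the receptor that binds BMP9 with endoglin, differed by -0.29, Id2, a target gene of BMP signals, by -0.47 and Tgfb2 by -0.31, all with overlapping arrays.

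Around NT5E in the adenosine pathway, 9 of 20 genes were tested, 3 higher and 6 lower, with a median difference of -0.07, 0 called by limma and 1 in each direction at an unadjusted p of 0.05, against 4.77% of all genes tested. The median turned to 0.03 without non-targeted replicate 2. Alpl, tissue-nonspecific alkaline phosphatase, which can also cleave AMP, was at 11.76, 10.63 and 11.06 in targeted cells, against 10.42, 9.95 and 9.74 in non-targeted cells (difference 1.11, SE 0.31, limma adjusted p = 0.824). Ada, which breaks down adenosine, differed by -0.37 and Enpp3, a nucleotide pyrophosphatase, by -0.80. Entpd1, which supplies AMP to NT5E, was dim, its highest array at 6.20.

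No listed partner of NGFR or relative of DPP4 passed the test. In the neurotrophin list 10 of 18 genes were tested, 3 higher and 7 lower (median -0.02, 0 called by limma, 0 at an unadjusted p of 0.05, against 4.77% of all genes tested). The median turned to 0.08 without targeted replicate 1 and to 0.06 without non-targeted replicate 1. Sort1, a co-receptor of NGFR for proneurotrophins, differed by 0.38 with all targeted arrays higher, and Bex3, a protein that binds NGFR, by -0.36 with all targeted arrays lower. Of 12 dipeptidyl peptidase and prolyl peptidase genes 9 were tested, 4 higher and 5 lower (median -0.09, 0 called by limma, 0 at an unadjusted p of 0.05, against 4.77% of all genes tested). The median was -0.17 without targeted replicate 1 and turned to 0.04 without targeted replicate 3. Fap, the nearest relative of Dpp4 and a fibroblast protease, was at 10.96, 9.11 and 9.87 in targeted cells, against 9.61, 9.63 and 9.44 in non-targeted cells. Targeted replicates 1 and 3 lay above all non-targeted arrays and targeted replicate 2 below them, and the higher mean rested on targeted replicate 1. Dpp9 differed by -0.37, Prep by -0.32 and Xpnpep1 by -0.29, each with all targeted arrays below all non-targeted ones. Over all genes tested, 3.32% had all targeted arrays higher and 5.76% had all lower.

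For CD44, 16 of 26 hyaluronan genes were tested, 9 higher and 7 lower (median 0.03, 0 called by limma, 2 at an unadjusted p of 0.05, against 4.77% of all genes tested). The median turned to -0.15 without targeted replicate 1, -0.04 without targeted replicate 3, -0.08 without non-targeted replicate 2, -0.0011 without non-targeted replicate 3 and -0.03 under the stricter filter. Vcan, the hyaluronan-binding proteoglycan versican, was at 8.65, 8.26 and 7.89 in targeted cells, against 7.39, 7.42 and 7.40 in non-targeted cells (difference 0.87, SE 0.21, limma adjusted p = 0.734). Srgn, the proteoglycan serglycin that binds CD44, was at 10.31, 10.67 and 10.18 against 10.81, 11.28 and 10.90 (difference -0.61, SE 0.20, limma adjusted p = 0.947). The arrays overlapped for neither gene, as for 9.07% of all genes tested. The hyaluronan synthases Has1, Has2 and Has3 were dim.

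Of 15 integrins and kinases that THY1 engages, 10 were tested, 4 higher and 6 lower (median -0.05, and -0.0005 without non-targeted replicate 3; 0 called by limma, 2 at an unadjusted p of 0.05, against 4.77% of all genes tested). Itgb5 differed by 0.46 and Itgb3 by 0.48, both with an unadjusted p under 0.05 and all targeted arrays higher, as for 3.32% of all genes tested. Itgav, their common alpha chain partner, differed by -0.0032. The CD34 family list had 4 tested genes of 11, 1 higher and 3 lower (median -0.10, 0 called by limma and 0 at an unadjusted p of 0.05, against 4.77% of all genes tested). The median was 0.04 without targeted replicate 1, -0.17 without targeted replicate 3, 0.0027 without the filter and 0.011 with array weights. Its sign thus depended on 1 array, on the filter and on the weights. Podxl, the sialomucin closest to Cd34, was dim at 5.70 to 6.07.

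Interferon-stimulated genes and mediators, among them interferon receptor chains, were examined because Ly6e and Ly6c respond to interferon. Of 35 genes 28 were tested, 20 lower and 8 higher in targeted cells (median -0.14, 0 called by limma, 0 at an unadjusted p of 0.05, against 4.77% of all genes tested). The median was -0.07 without non-targeted replicate 2 or targeted replicate 2, -0.08 without targeted replicate 3 and -0.05 under quantile normalization. Their summed intensity was 30828, 27613 and 25182 on targeted replicates 1, 2 and 3 and 28287, 33876 and 30215 on the non-targeted ones. It was highest on non-targeted replicate 2, as Ly6e was, while on non-targeted replicate 1 it lay above targeted replicates 2 and 3, where Ly6e did not. Ifngr1, an interferon gamma receptor chain, differed by -0.46 and Ifnar2, a type I receptor chain, by -0.34. Both had all targeted arrays lower, as did 5 of the 28 genes and 5.76% of all genes tested. The interferon-stimulated genes Xaf1 and Oasl2 differed by -0.52 and -0.35, with overlapping arrays. The part of the interferon genes in the level of Ly6e was not tested.

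**Figure D4:**
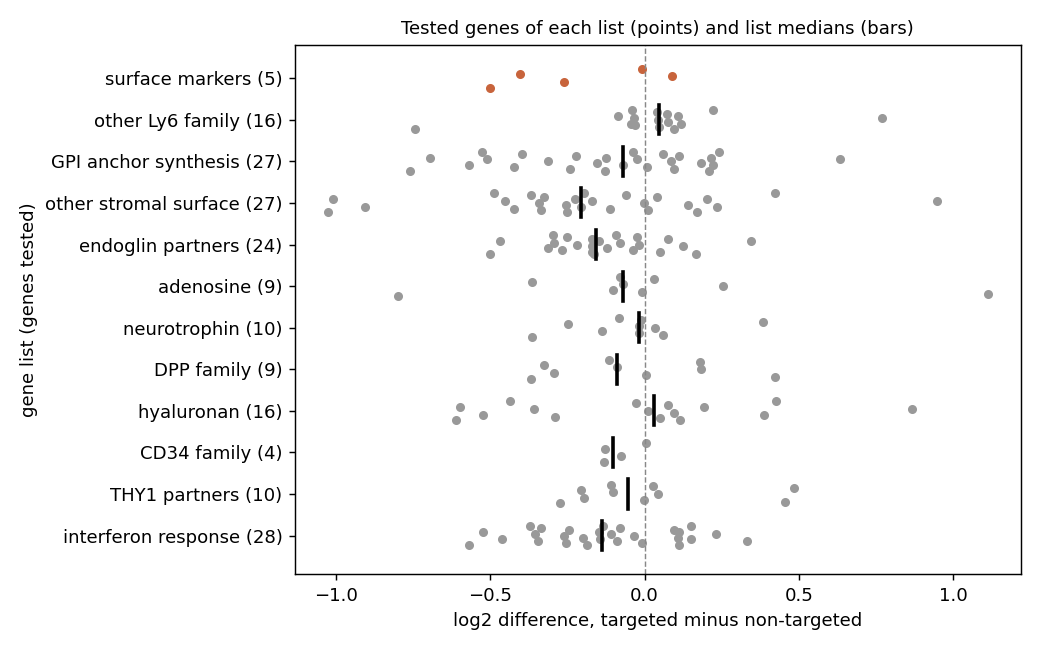
Log2 difference between targeted and non-targeted CAR cells (x axis) for the tested genes of 12 lists (points; number tested in brackets), with the list's median as a black bar for all lists but the markers. The lists drawn are the markers and the 11 lists of related genes, without the cell type lists. The 5 tested markers (orange) lie between -0.50 and 0.09, and the medians of the 11 lists between -0.21 and 0.05.

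Lists of cell identity gave the setting for the markers. Of the CAR cell genes 14 of 14 tested were lower in targeted cells (median -0.32, and -0.19 without targeted replicate 2), and of the osteoblast and osteocyte genes 11 of 12 were higher (median 0.46), with 0 called by limma in either list. Over all genes tested 48.9% were higher. The summed intensity of the CAR cell genes was 42172 on targeted replicate 1, within the non-targeted 40253 to 48754. On targeted replicates 2 and 3 it was lower, at 32548 and 32360. The medians were 0.07 for fibroblast and periosteal genes, 0.11 for pericyte and smooth muscle genes, 0.14 for Schwann cell genes, -0.0064 for B cells, -0.18 for plasma cells, 0.11 for T and NK cells and -0.03 for erythroid cells. Several of these medians changed direction. The stricter filter turned that of pericyte genes to -0.40 and that of fibroblast genes to -0.0106, and without the filter that of plasma cells was 0.0112. Without non-targeted replicate 2 the median was -0.0112 for pericyte, -0.0049 for fibroblast and -0.0002 for T and NK cell genes. For B cells it was 0.09 and for erythroid cells 0.10 without non-targeted replicate 1. The erythroid median leaves out the haemoglobin genes, which share probe sets. Both probe sets of Hba-a1 and Hba-a2 were lower on all targeted arrays, by log2 differences of -1.01 and -1.02. All targeted arrays were also lower for 5.76% of all genes tested. The 2 probe sets of the Hbb genes differed by -0.34 and -0.39 with overlapping arrays. None of these probe sets entered the fit. Pi16, an adventitial fibroblast gene often found with Dpp4, was at 5.87, 6.23 and 6.40 in targeted cells, against 6.19, 5.91 and 5.85 in non-targeted cells (difference 0.18).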

How the data were processed

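Arrays of 3 targeted and 3 non-targeted samples were analysed, grouped by their titles. The deposited table held probe set intensities that the authors made by RMA (Affymetrix Expression Console 1.4), according to the submitters' processing notes. They were linear in scale, so their log2 was taken here. Which annotation and genome build were used upstream is not given in the sources used here. Of 35556 probe sets, 21789 named 1 gene, 1621 several and 12146 were not listed in the platform annotation. For 21698 of the former, an Entrez identifier matched RefSeq's GRCm38.p6 table and gave the current symbol. The brightest probe set per gene was kept (19938 genes), and the 33.3% with the lowest means, up to a log2 of 6.00, were left out as dim, which left 13292. No detection calls were used. Precision is limited by the number of arrays.

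The test was limma's (version 3.58.1, R 4.3.3; lmFit, eBayes, no covariate, two-sided, Benjamini-Hochberg over all genes tested, threshold 0.05). The procedure was tested on simulated data with 200 of 13292 genes changed and noise drawn independently for each gene. It recovered 54.25% of 2-fold changes and 98.55% of 4-fold changes. Smaller changes, such as the 1.42-fold difference of Eng, the largest among the tested markers, were not simulated. Each SD is over the 3 arrays of a group. Markers and 24 lists of related genes and cell type markers were chosen with earlier results of these data known, so lists are described by counts and medians without a set test. Named genes are the markers, up to 4 tested genes per list by smallest p, and defining markers, while Entpd1, Fap, Has1 to Has3, Itgav, Pdgfra, Podxl and Pi16 were named after their values were seen. Alternatives were other filters, scalings and variance models, array weights, the mean of probe sets, the replicate number as a block, and leaving out each array. The number was left out of the main fit because nothing in the labels says that it marks 1 mouse. Deviations of same-numbered arrays from their group means correlated at r = -0.26, -0.12 and 0.07 for numbers 1, 2 and 3. With means of 3 arrays, this cannot settle whether they came from the same mouse. Figures were drawn with matplotlib 3.10.9.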

Additional observations from a re-analysis of the deposited data

How the results depend on the processing

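No marker passed the adjusted threshold under any of the alternatives run. Over all genes, 0 were called except with array weights or with a fixed replicate block, where 1 was called, Dmp1, which is also the 1 list gene called there (limma adjusted p = 0.0259 and 0.0153). With a random block 0 were called. Leaving out each array in turn gave 0 calls over all genes, among the markers and among the list genes. The difference of Ly6e kept its sign in all 18 alternatives, as did that of Eng. Nt5e ran from -0.61 to 0.0165 over arrays left out. Ngfr ran from -0.0577 to 0.0635, with 0.0333 and 0.0026 without targeted replicates 1 and 3, and was 0.0204 under quantile normalization and 0.0015 on replicates 2 and 3 alone. Cd44 ran from -0.003 to 0.18. Under the fixed replicate block the differences of the 5 tested markers were as in the fit without it, at -0.40 for Ly6e and -0.50 for Eng, and no other call changed. The lowest adjusted p of a marker under any alternative was 0.256, for Eng with array weights. The 3 dim markers were fitted only without the filter, and dim signals limit what their small differences show.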

Other observations

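Cd59a, a GPI-anchored complement inhibitor of the Ly6 family, was named after its values were seen. It was at 5.29, 6.46 and 9.003 on targeted replicates 1, 2 and 3 and at 6.27, 6.96 and 7.20 on the non-targeted arrays. Its mean difference of 0.11 hides a wide spread among targeted arrays (limma adjusted p = 0.9998). Lyz2, a lysozyme gene of neutrophils and macrophages, was likewise named after its values were seen. It had the same order of arrays in the targeted cells, at 5.94, 8.04 and 8.49. Any link between Lyz2 and Cd59a was not tested.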
